A study of Rattus norvegicus with 12 samples.

Results

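The histocompatibility class II and class I chains of the rat kidney were described across 4 strains, with every probe set of a gene kept apart from the others. The members were all single-symbol probe sets of RT1-Ba, RT1-Bb, RT1-Da, RT1-Db1, RT1-DMa, RT1-DMb, Cd74, Ciita, RT1-CE16 and RT1-T24-3 on Affymetrix Rat 230 arrays. The symbols gave 16 probe sets of 10 genes, of 31042 probe sets that are no controls and 20826 with a single gene symbol. RT1-Ba had 4 probe sets, RT1-Bb, RT1-Db1 and Ciita had 2 each, and the other genes had 1 each.

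The 4 groups were PCK, SD, FHH.Pkhd1 and FHH kidneys, all taken at 30 days of age from animals on the same diet. PCK carries the Pkhd1 mutation of a rat model of autosomal recessive polycystic kidney disease, and arose from the outbred SD (Sprague Dawley) stock. FHH.Pkhd1, or FHH.PCK-(D9Rat35-D9Rat70)/Mcwi, carries a PCK segment of chromosome 9 with the same mutation on the background of inbred FHH (Fawn Hooded Hypertensive) rats. RNA from both kidneys of 6 animals of a strain was pooled and hybridised to 3 arrays. The 3 arrays are repeat measurements of 1 pool. Every error and p-value below, the standard error (SE) included, thus sets pools against array spread and leaves the spread between animals unmeasured. In whole-kidney RNA, fewer cells that express a gene and less RNA per cell cannot be told apart.

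Class II molecules are pairs of an alpha and a beta chain that show peptides to helper T cells. The rat has the RT1-B pair (RT1-Ba and RT1-Bb), related to human HLA-DQ, and the RT1-D pair (RT1-Da and RT1-Db1), related to human HLA-DR. Cd74, the invariant chain, fills the groove of a new class II molecule, and the RT1-DM pair (RT1-DMa and RT1-DMb) exchanges its remnant for other peptides. Ciita is the coactivator that switches class II genes on, and it is recruited to their promoters by factors bound to conserved X and Y boxes. In the kidney these genes are known mainly from dendritic cells and macrophages, and interferon gamma can induce them in tubule cells. RT1-CE16 and RT1-T24-3 belong to class I, whose chains pair with beta-2 microglobulin. RT1 genes are highly polymorphic between rat strains and have close relatives, so a probe set may read alleles or relatives of its gene to different extents. The suffix x_at marks probes that may match other sequences, s_at a set shared by several transcripts and a_at a set for several transcripts of 1 gene.

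The RT1 members lie on chromosome 20, Cd74 on chromosome 18 and Ciita on chromosome 10 in the GRCr8 assembly, so none lies on the chromosome of the congenic segment. Promoters of 8 of the 10 genes were in the RefSeq table for GRCr8, each running from 250 bases before to 50 bases after the start. The 5 class II promoters among them share an arrangement, shown because these boxes are where Ciita is known to be recruited. Capitals mark an X-like heptamer, GNNACNG, and the Y-box core, GATTGG, which lie 24 or 25 bases apart.

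RT1-Ba: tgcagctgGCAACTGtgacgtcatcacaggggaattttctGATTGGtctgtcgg
RT1-Bb: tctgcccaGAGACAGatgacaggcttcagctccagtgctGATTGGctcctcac
RT1-Da: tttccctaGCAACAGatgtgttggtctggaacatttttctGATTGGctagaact
RT1-Db1: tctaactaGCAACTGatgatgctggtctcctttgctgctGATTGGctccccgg
RT1-DMa: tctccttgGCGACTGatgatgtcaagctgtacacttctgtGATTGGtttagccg

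The RT1-Ba window is chr20:4576973-4577026 on the plus strand and the RT1-Da window is chr20:4515325-4515378 on the plus strand of GRCr8. The RT1-Bb window is chr20:4604167-4604219, the RT1-Db1 window is chr20:4560230-4560282 and the RT1-DMa window is chr20:4712387-4712440, all on the minus strand. The Y core starts 44 bases before the start of RT1-Ba, 62 before RT1-Bb, 50 before RT1-Da, 81 before RT1-Db1 and 65 before RT1-DMa. The combined motif, GNNACNG followed after 20 to 30 bases by GATTGG, was searched on both strands and stands in 271 of 33469 promoters of that length (0.81%), and in none of the other 3 member promoters (Cd74, RT1-CE16 and RT1-T24-3). GATTGG alone is in 14.81% of promoters and GNNACNG alone in 88.1%. The letters were chosen after these promoters were read, and a match is a description, not a bound site.

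Values were log2 signals as deposited, between 2.38 and 14.41, with array medians of 6.41 to 6.46. Arrays of the same pool correlated at 0.9973 to 0.9985 and arrays of different pools at 0.9862 to 0.996, and precision is limited by having 3 arrays a pool. The 3′ minus 5′ signal of the beta-actin control probe sets, a measure of RNA and labelling quality, was 1.31 to 1.35 in PCK, 1.07 to 1.12 in SD, 1.18 to 1.21 in FHH.Pkhd1 and 1.37 to 1.40 in FHH, and its part in the results was not tested. The detection level was set at 5.75, the 40th percentile of the deposited values, and 19359 probe sets whose highest pool mean reached it were tested. The level is no measured background, and a difference against a pool below it is given in log2 units with no fold. A probe set was called when its limma p, adjusted by Benjamini and Hochberg over all 19359, was under 0.05 and its difference reached 1.5-fold. All 16 members were tested, but RT1-Bb 1371065_at, RT1-Ba 1377334_at and RT1-T24-3 1388694_at reached the level in SD alone and so had to differ to enter the test.

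The RT1-B pair, the class II molecule related to HLA-DQ, gave the largest differences of the 16 probe sets, and their direction depended on which probe set of a gene was read. RT1-Bb 1371033_at was high in PCK, FHH.Pkhd1 and FHH but under the detection level in SD, while RT1-Bb 1371065_at was high in SD and below the level elsewhere. RT1-Ba 1377334_at was high in SD alone, whereas the other 3 RT1-Ba probe sets were well above the detection level in every pool.

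RT1-Bb 1371033_at gave 9.86, 9.68 and 9.89 in PCK, 4.41, 4.48 and 4.27 in SD, 10.87, 10.81 and 11.07 in FHH.Pkhd1, and 10.75, 10.78 and 10.67 in FHH. The SD arrays lay more than 5 log2 units under all others, and the pools did not overlap. PCK exceeded SD by 5.42 ± 0.08 (SE, 3 arrays each, limma adjusted p = 3.17e-13), and SD minus FHH was -6.34 ± 0.08 (adjusted p = 6.29e-14).

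RT1-Bb 1371065_at gave 4.28, 4.27 and 4.28 in PCK, 9.44, 9.48 and 9.50 in SD, 4.01, 4.10 and 4.20 in FHH.Pkhd1, and 4.32, 4.34 and 4.06 in FHH. The 3 SD arrays stood alone, and the other 9 arrays overlapped below the detection level. PCK minus SD was -5.19 ± 0.07 (limma adjusted p = 1.94e-13) and SD exceeded FHH by 5.23 ± 0.07 (adjusted p = 1.26e-13).

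RT1-Ba 1377334_at gave 5.03, 5.09 and 5.14 in PCK, 10.01, 10 and 10.06 in SD, 5.02, 5.28 and 5.03 in FHH.Pkhd1, and 5.14, 5.23 and 5.23 in FHH. As with RT1-Bb 1371065_at, signal above the detection level was found in SD only. PCK minus SD was -4.94 ± 0.06 (limma adjusted p = 1.91e-13) and SD exceeded FHH by 4.83 ± 0.06 (adjusted p = 1.26e-13).

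RT1-Ba 1370822_at gave 9.65, 9.74 and 9.77 in PCK, 9.90, 10.01 and 9.93 in SD, 11.05, 10.91 and 10.97 in FHH.Pkhd1, and 10.67, 10.66 and 10.67 in FHH. Here SD was not set apart: the pools ran PCK, SD, FHH and FHH.Pkhd1 in rising order without overlap. PCK was 2.38-fold lower than FHH.Pkhd1 (log2 difference -1.25 ± 0.05, limma adjusted p = 1.46e-09), and SD was 1.65-fold lower than FHH (-0.72 ± 0.05, adjusted p = 3.86e-07). PCK minus SD, at -0.23 ± 0.05, was under the fold limit.

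RT1-Ba 1392334_at averaged 7.88 ± 0.14 in PCK, 7.62 ± 0.13 in SD, 7.54 ± 0.09 in FHH.Pkhd1 and 7.64 ± 0.25 in FHH (standard deviation, 3 arrays each). RT1-Ba 1381593_x_at averaged 7.70 ± 0.14 in PCK, 7.51 ± 0.14 in SD, 7.44 ± 0.17 in FHH.Pkhd1 and 7.65 ± 0.31 in FHH. Neighbouring pools overlapped throughout for both probe sets, whose pool means spanned 0.34 and 0.26 log2 units, and neither was called in any comparison.

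**Figure D1:**
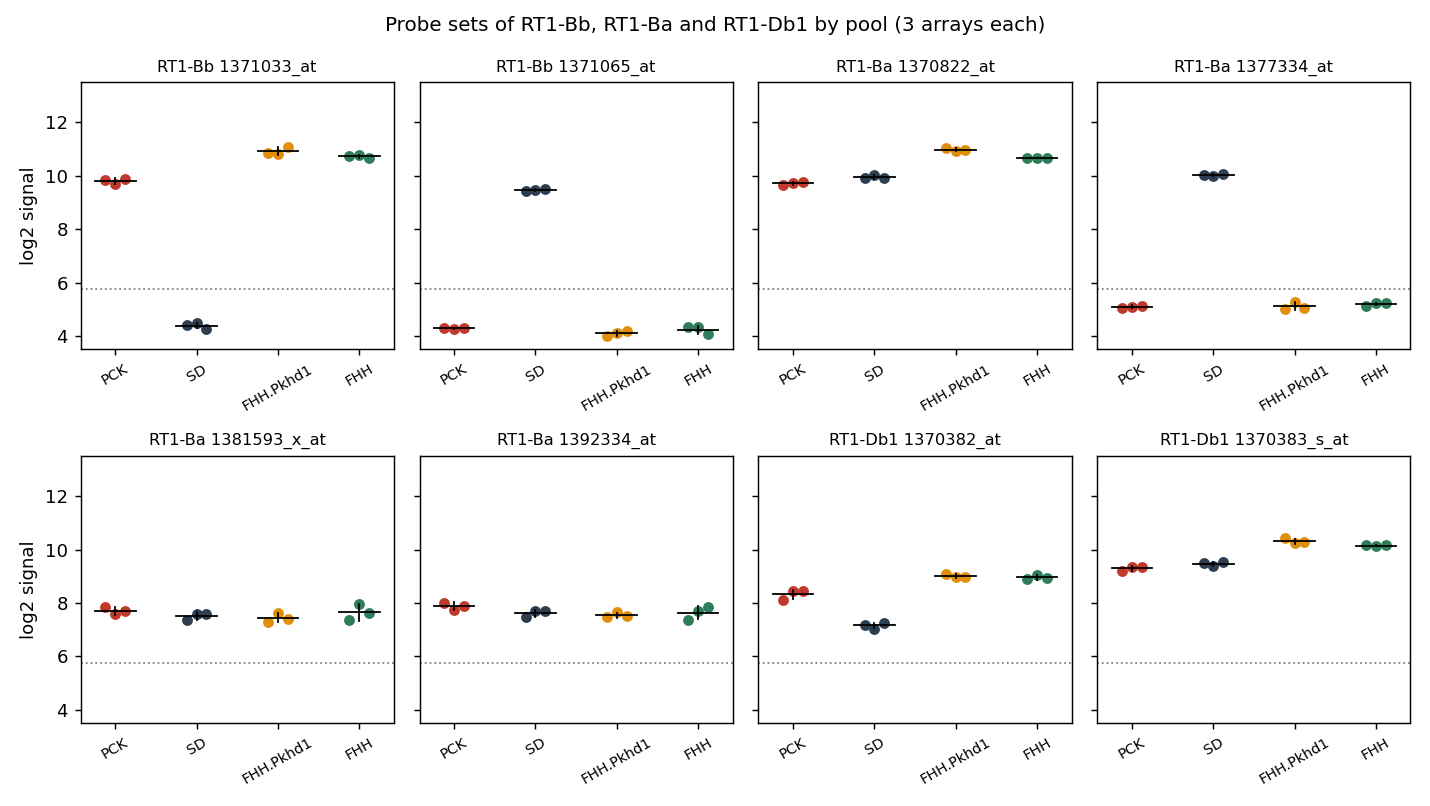
Log2 signal (y axis) of the 8 probe sets of RT1-Bb, RT1-Ba and RT1-Db1 in PCK, SD, FHH.Pkhd1 and FHH pools (x axis), with 1 point per array, the pool mean and standard deviation as lines, and the detection level of 5.75 dotted. SD is far below the other pools for RT1-Bb 1371033_at and far above them for RT1-Bb 1371065_at and RT1-Ba 1377334_at.

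The RT1-D pair, the class II molecule related to HLA-DR, was above the detection level on all 3 of its probe sets in every pool. RT1-Da, the alpha chain, was lowest in PCK. Its 1370883_at gave 10.33, 10.29 and 10.24 in PCK, 10.99, 11.04 and 11 in SD, 11.50, 11.47 and 11.38 in FHH.Pkhd1, and 11.31, 11.25 and 11.32 in FHH, with no overlap between pools. It was 1.65-fold lower in PCK than in SD (-0.73 ± 0.04, limma adjusted p = 1.37e-07) and 2.24-fold lower in PCK than in FHH.Pkhd1 (-1.16 ± 0.04, adjusted p = 1.07e-09).

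RT1-Db1, the beta chain, was read by probe sets that ordered PCK and SD in opposite ways. RT1-Db1 1370382_at gave 8.11, 8.43 and 8.43 in PCK, 7.19, 7.04 and 7.24 in SD, 9.07, 8.97 and 8.98 in FHH.Pkhd1, and 8.88, 9.06 and 8.95 in FHH. It was 2.24-fold higher in PCK than in SD (1.17 ± 0.08, limma adjusted p = 7.55e-07), and 3.5-fold lower in SD than in FHH (-1.81 ± 0.08, adjusted p = 1.58e-08). PCK was below FHH.Pkhd1 by 1.61-fold (-0.69 ± 0.08, adjusted p = 3.69e-05).

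RT1-Db1 1370383_s_at gave 9.18, 9.34 and 9.36 in PCK, 9.48, 9.39 and 9.54 in SD, 10.42, 10.24 and 10.29 in FHH.Pkhd1, and 10.16, 10.13 and 10.16 in FHH. Its PCK minus SD difference of -0.18 ± 0.06 did not reach the fold limit. PCK was 2.02-fold lower than FHH.Pkhd1 (-1.02 ± 0.06, limma adjusted p = 6.71e-08) and SD was 1.6-fold lower than FHH (-0.68 ± 0.06, adjusted p = 4.49e-06).

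Among the chains that load class II molecules, PCK was the lowest pool for Cd74 and RT1-DMa but lay close to SD for RT1-DMb. Cd74 1367679_at, the invariant chain, gave 11.18, 11.15 and 11.17 in PCK, 11.94, 11.84 and 11.88 in SD, 12.02, 12 and 12.02 in FHH.Pkhd1, and 11.91, 11.90 and 11.87 in FHH. The PCK arrays were the lowest, and SD and FHH overlapped. Cd74 was 1.65-fold lower in PCK than in SD (-0.72 ± 0.04, limma adjusted p = 3.04e-08) and 1.8-fold lower in PCK than in FHH.Pkhd1 (-0.85 ± 0.04, adjusted p = 3.24e-09).

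RT1-DMa 1370904_at gave 7.20, 7.30 and 7.15 in PCK, 7.82, 7.80 and 7.70 in SD, 8.22, 8.11 and 8.05 in FHH.Pkhd1, and 7.98, 7.89 and 7.93 in FHH, again with PCK lowest. It was 1.87-fold lower in PCK than in FHH.Pkhd1 (-0.91 ± 0.06, limma adjusted p = 9.79e-08). Its PCK minus SD difference of -0.55 ± 0.06 (1.47-fold) lay just under the fold limit, and passed it without PCK replicate 2 (-0.60) or without SD replicate 3 (-0.59).

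RT1-DMb 1370882_at, the partner of RT1-DMa, gave 9.54, 9.56 and 9.56 in PCK, 9.46, 9.52 and 9.45 in SD, 10.48, 10.44 and 10.44 in FHH.Pkhd1, and 10.26, 10.17 and 10.25 in FHH. PCK and SD lay close together (0.07 ± 0.04), and both FHH-background pools lay higher. PCK was 1.87-fold lower than FHH.Pkhd1 (-0.90 ± 0.04, limma adjusted p = 3.22e-09) and SD was 1.68-fold lower than FHH (-0.75 ± 0.04, adjusted p = 3.39e-08).

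Ciita, the coactivator, gave signals close to the detection level. Ciita 1379381_at gave 5.61, 5.83 and 5.62 in PCK, 5.88, 6.16 and 6.08 in SD, 6.52, 6.67 and 6.42 in FHH.Pkhd1, and 6.49, 6.42 and 6.35 in FHH. PCK minus FHH.Pkhd1 was -0.85 ± 0.09 (limma adjusted p = 6.87e-06), with the PCK mean of 5.69 just below the level. Ciita 1369214_a_at averaged 6.00 ± 0.19 in PCK, 6.04 ± 0.05 in SD, 5.96 ± 0.13 in FHH.Pkhd1 and 6.03 ± 0.16 in FHH (standard deviation, 3 arrays each), and its pools overlapped.

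The class I members went in opposite directions in SD. RT1-T24-3 1388694_at gave 5.79, 5.52 and 5.68 in PCK, 7.78, 7.73 and 7.63 in SD, 5.66, 5.52 and 5.34 in FHH.Pkhd1, and 5.56, 5.66 and 5.40 in FHH. SD alone had a mean above the detection level, with a PCK minus SD difference of -2.05 ± 0.09 (limma adjusted p = 1.34e-08) and a SD minus FHH difference of 2.17 ± 0.09 (adjusted p = 7.45e-09).

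RT1-CE16 1370463_x_at gave 7.99, 7.99 and 8.14 in PCK, 7.21, 6.98 and 7.24 in SD, 7.36, 7.57 and 7.88 in FHH.Pkhd1, and 8.10, 8.12 and 8.15 in FHH. SD was the lowest pool, PCK and FHH overlapped, and the FHH.Pkhd1 arrays ranged more widely than those of the other pools. It was 1.86-fold higher in PCK than in SD (0.89 ± 0.11, limma adjusted p = 6.03e-05) and 1.97-fold lower in SD than in FHH (-0.98 ± 0.11, adjusted p = 3.05e-05).

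**Figure D2:**
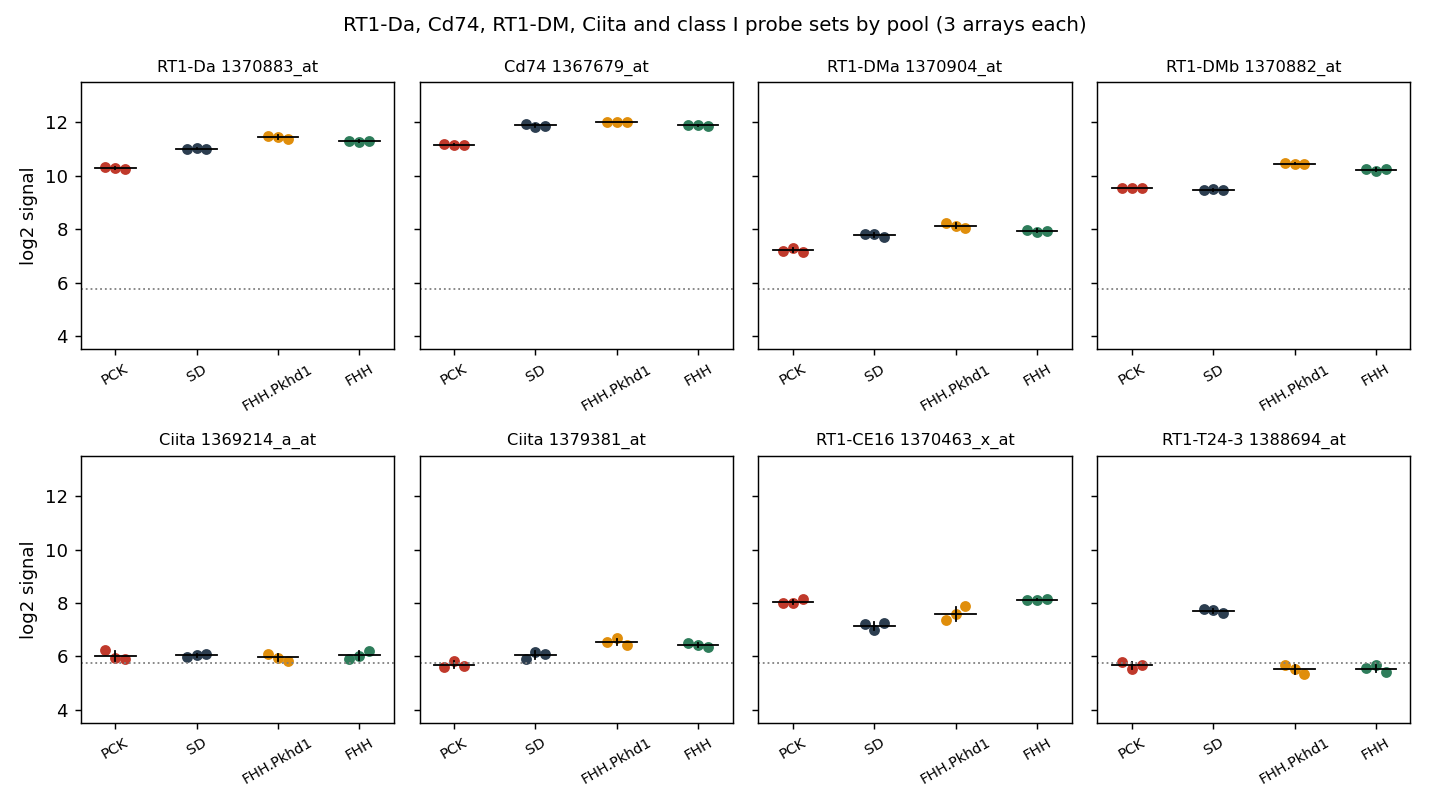
Log2 signal (y axis) of the RT1-Da, Cd74, RT1-DMa, RT1-DMb, Ciita, RT1-CE16 and RT1-T24-3 probe sets in PCK, SD, FHH.Pkhd1 and FHH pools (x axis), with 1 point per array, the pool mean and standard deviation as lines, and the detection level of 5.75 dotted. PCK is the lowest pool for RT1-Da, Cd74 and RT1-DMa, and the RT1-T24-3 mean is above the level in SD alone.

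PCK against SD asks what differs between the cystic strain and the stock it came from. Of the 16 members, 8 were called, against 3.49% of all probe sets tested. RT1-Bb 1371033_at, RT1-Db1 1370382_at and RT1-CE16 were higher in PCK, and RT1-Bb 1371065_at, RT1-Ba 1377334_at, RT1-T24-3, RT1-Da and Cd74 were lower. Of these, RT1-Bb 1371065_at, RT1-Ba 1377334_at and RT1-T24-3 entered the test through SD alone. They had to differ to be tested, so their calls add nothing beside that share. The median log2 difference of the members was -0.20, beside -0.01 over all probe sets tested.

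FHH.Pkhd1 against FHH asks what the congenic segment changes on the FHH background. None of the 16 members was called by limma, against 1.90% of all probe sets tested, although 8 had an unadjusted p under 0.05. At that share few calls would be found among 16 probe sets. The means of RT1-Bb 1371065_at, RT1-Ba 1377334_at and RT1-T24-3 were below the detection level in both pools, so their lack of a call says little. With no fold limit 6 of the 16 had an adjusted p under 0.05, as had 21.0% of all probe sets tested. The median of the members was 0.08, beside 0.02 over all. RT1-CE16 came closest to the fold limit, at -0.52 ± 0.11 (1.43-fold lower in FHH.Pkhd1, limma adjusted p = 0.00544), and without FHH.Pkhd1 replicate 3 it was called, at -0.66. RT1-Ba 1370822_at followed at 0.31 ± 0.05 (adjusted p = 0.000805) and RT1-DMb at 0.23 ± 0.04 (adjusted p = 0.0013).

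PCK against FHH.Pkhd1 sets the strains with the mutation side by side. Here 9 of the 16 members were called, against 6.91% of all probe sets tested, and all 9 were lower in PCK, against 3.79% of all probe sets called lower. They were RT1-Ba 1370822_at, RT1-Bb 1371033_at (2.16-fold, -1.11 ± 0.08), RT1-Da, both RT1-Db1 probe sets, RT1-DMa, RT1-DMb, Cd74 and Ciita 1379381_at. Each of the 8 class II, Cd74 and Ciita genes thus had a probe set among them, but other probe sets of RT1-Ba, RT1-Bb and Ciita were not called. RT1-Ba 1392334_at was at 0.34 ± 0.11, RT1-Ba 1381593_x_at at 0.26 ± 0.14 and Ciita 1369214_a_at at 0.05 ± 0.10. RT1-Ba 1377334_at and RT1-Bb 1371065_at were below the detection level in both pools, as was Ciita 1379381_at in PCK. Neither class I member was called, with RT1-CE16 at 0.44 ± 0.11 and RT1-T24-3 at 0.16 ± 0.09. The RT1-T24-3 means were below the detection level in both pools, so its lack of a call says little. The median of the members was -0.77, beside -0.06 over all. Without PCK replicate 1 the RT1-Db1 1370382_at call was lost, at -0.58.

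SD against FHH sets the strains without the mutation side by side. Again 9 of the 16 members were called, against 3.72% of all probe sets tested. RT1-Bb 1371065_at, RT1-Ba 1377334_at and RT1-T24-3 were higher in SD, and RT1-Bb 1371033_at, both RT1-Db1 probe sets, RT1-CE16, RT1-DMb and RT1-Ba 1370822_at were lower. The probe sets called higher in SD had entered the test through SD alone, so their calls add nothing beside that share. RT1-Da was at -0.28 ± 0.04 and Cd74 at -0.01 ± 0.04, neither called. The median of the members was -0.22, beside -0.03 over all. Each pool enters more than 1 comparison, so these counts share arrays.

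The difference between PCK and SD minus that between FHH.Pkhd1 and FHH was tested as an interaction. It was called for 9 of 16 members, against 6.44% of all probe sets tested. The values were 5.23 ± 0.11 for RT1-Bb 1371033_at, 1.12 ± 0.12 for RT1-Db1 1370382_at and 1.41 ± 0.15 for RT1-CE16, and the other 6 were negative. Among these, RT1-Da was at -0.88 ± 0.06, Cd74 at -0.84 ± 0.05 and RT1-DMa at -0.74 ± 0.08. The remaining negative values were those of RT1-Bb 1371065_at, RT1-Ba 1377334_at and RT1-T24-3. These had entered the test through SD alone, so their calls add nothing beside that share.

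**Figure D3:**
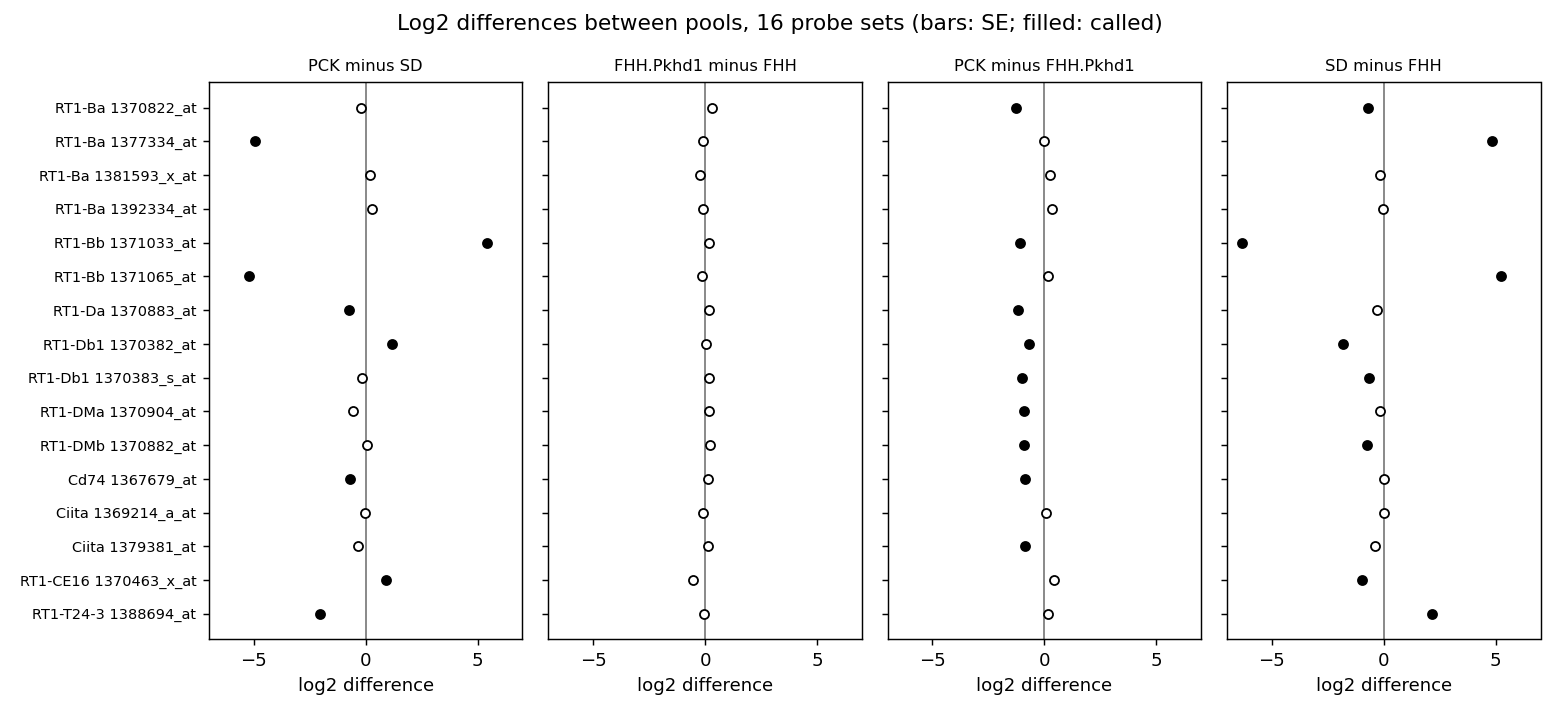
Log2 difference between pools (x axis) of the 16 probe sets (rows) in 4 comparisons, with the SE as a bar that is mostly smaller than its point, and filled points for called differences. No point is filled for FHH.Pkhd1 minus FHH, and all 9 filled points of PCK minus FHH.Pkhd1 lie left of 0.

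To ask whether probe sets of 1 gene gave different strain differences, the per-array difference between them was fitted for all 5006 pairs of detected probe sets in 2869 genes. The members gave 9 pairs, 6 of which were of RT1-Ba and shared probe sets. For PCK minus SD, 5 of the 9 differed, against 2.86% of all pairs. The RT1-Bb pair was the largest of all 5006: the difference of 1371033_at exceeded that of 1371065_at by 10.62 ± 0.08 (limma adjusted p = 9.43e-18). The RT1-Ba pairs with 1377334_at took ranks 2 to 4, with sizes of 4.72 to 5.20. These pairs and the RT1-Bb pair each hold a probe set that entered the test through SD alone. Their disagreement was thus partly built in, and their calls and ranks add little beside that share. The RT1-Db1 pair was at rank 25, with 1370382_at above 1370383_s_at by 1.34 ± 0.07 (adjusted p = 1.77e-08). Only 4 genes on the array had probe sets called in opposite directions in PCK minus SD, namely RT1-Bb, Abca1, Prlr and Sc5d.

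For SD minus FHH, 6 of the 9 pairs differed, against 3.84% of all pairs. The RT1-Bb pair again had rank 1, at -11.57 ± 0.08 (1371033_at minus 1371065_at, limma adjusted p = 3.08e-18), and RT1-Ba pairs had ranks 2 to 4. Each of these pairs again holds a probe set that entered the test through SD alone, so their disagreement was partly built in. The RT1-Db1 pair was at -1.13 ± 0.07. Opposite calls were made for RT1-Bb, RT1-Ba, Abca1 and Ppp3r1.

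For PCK minus FHH.Pkhd1, 5 of the 9 pairs differed, against 7.05% of all pairs. They were 3 RT1-Ba pairs with 1370822_at (-1.23 to -1.59), the RT1-Bb pair (-1.28 ± 0.08) and the Ciita pair (0.90 ± 0.14). RT1-Bb 1371065_at and RT1-Ba 1377334_at were below the detection level in both of these pools, so the RT1-Bb pair and 1 of the RT1-Ba pairs carry only the difference of the other probe set and do not compare 2 measured signals. Ciita 1379381_at was likewise below that level in PCK. For FHH.Pkhd1 minus FHH none of the 9 was called by limma, against 3.50% of all pairs, and 4 had an unadjusted p under 0.05. At that share few calls would be found among 9 pairs. RT1-Bb 1371065_at and RT1-Ba 1377334_at were below the level in both of those pools too, so pairs that hold them do not compare 2 measured signals. A two-sided exact permutation test of 3 arrays against 3 cannot go below p = 0.1, which is its value for each called pair named above. Whether a probe set reads some alleles of its gene and not others was not tested, since probe sequences were not used here.

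**Figure D4:**
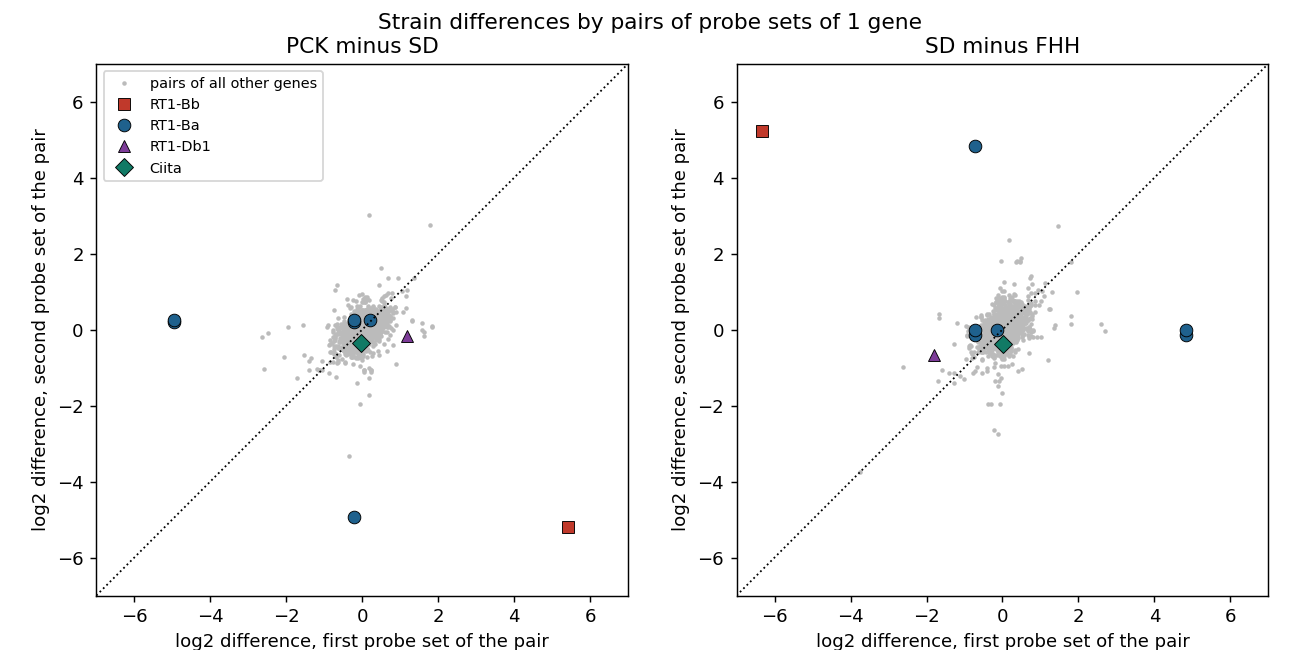
Log2 difference of PCK minus SD (left) and SD minus FHH (right) for pairs of probe sets of 1 gene, with the first probe set on the x axis and the other on the y axis, grey points for pairs of all other genes and coloured points for RT1-Bb, RT1-Ba, RT1-Db1 and Ciita. The RT1-Bb pair lies far off the dotted line of equal differences, at 5.42 and -5.19 on the left and at -6.34 and 5.23 on the right.

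The span between the highest and the lowest pool mean shows how far the members stood from other probe sets. It had a median of 1.0 log2 units over the 16 members, beside 0.25 over the 19359 probe sets tested. A span of 1 or more was found in 8 of the 16 members and in 689 of all probe sets tested (3.56%). Of 27 probe sets with a span of 4 or more, 3 were members: RT1-Bb 1371033_at ranked 3 (6.53), RT1-Bb 1371065_at ranked 7 (5.37) and RT1-Ba 1377334_at ranked 10 (4.94). RT1-Bb 1371065_at, RT1-Ba 1377334_at and RT1-T24-3 entered the test through SD alone, so some span was built in for them.

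Other genes of the class II pathway formed short lists, in which few calls would be found at the shares of all probe sets called. Of 9 tested probe sets of lysosomal proteases and other presentation genes, none was called by limma in PCK minus SD, against 3.49% of all probe sets tested. Of the 9, 5 had an unadjusted p under 0.05. The largest were Ctss, the cathepsin that trims Cd74, at 0.48 ± 0.04, and Ctsd, another cathepsin, at 0.43 ± 0.04. Ctss was higher in PCK than in FHH.Pkhd1 by 0.66 ± 0.04 (limma adjusted p = 8.59e-08), the opposite direction to Cd74 there.

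Of 11 tested probe sets of class II transcription factors other than Ciita, Creb1, which binds within the X-box region, was lower in PCK than in SD (-1.13 ± 0.10, limma adjusted p = 5.6e-06) and higher in SD than in FHH (0.95 ± 0.10, adjusted p = 2.48e-05). No other was called in the 4 comparisons. In PCK minus FHH.Pkhd1, where 9 members were called lower, 0 of the 11 were called, against 6.91% of all probe sets tested. Of the 11, 6 had an unadjusted p under 0.05, with Nfyb, a subunit of the Y-box factor, at -0.49 ± 0.07.

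Of 19 tested probe sets of the class I pathway, none was called by limma in any of the 4 comparisons, with 7 to 13 at an unadjusted p under 0.05. Over all probe sets tested, 1.90% to 6.91% were called in these comparisons. Tap2, which carries peptides to class I molecules, had a difference of 0.41 ± 0.08 between PCK and SD, and of 0.47 ± 0.08 between FHH.Pkhd1 and FHH.

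Of 15 tested probe sets of the interferon gamma response, Cxcl11, a chemokine, was higher in PCK than in SD (0.65 ± 0.04, limma adjusted p = 3.29e-07). Cxcl11 (0.94 ± 0.04), Igtp (0.93 ± 0.05) and Irgm (0.77 ± 0.14) were higher in PCK than in FHH.Pkhd1, where the called class II members were lower. Igtp, a GTPase, was called lower when FHH.Pkhd1 was set against FHH (-0.65 ± 0.05, adjusted p = 4.05e-06).

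Markers of cells that carry class II were read beside the members. Of 26 probe sets of macrophage and dendritic cell markers 16 were tested. Those of Flt3, Clec9a, Batf3, Cd80, Cd86, Cx3cr1, Itgam and Cd163 were below the detection level in every pool and are not covered. Over all probe sets tested, 3.49% were called in PCK minus SD and 6.91% in PCK minus FHH.Pkhd1. Of the 16, Mrc1 was called higher (0.90 ± 0.06) and Itgax, the CD11c chain, lower (-0.77 ± 0.08) in PCK than in SD. Itgb2 was higher in PCK than in FHH.Pkhd1 (0.61 ± 0.06). The linear signal summed over the 16 probe sets was 6845 to 6962 in PCK, 6251 to 6532 in SD, 5658 to 6003 in FHH.Pkhd1 and 5426 to 5638 in FHH. Lyz2, the lysozyme of macrophages, made up 56.2% to 61.4% of that sum on every array, with a mean log2 signal of 12.04 in PCK, 11.84 in SD, 11.71 in FHH.Pkhd1 and 11.62 in FHH. Without it the other 15 probe sets summed to 2639 to 2745 in PCK, 2734 to 2781 in SD, 2413 to 2469 in FHH.Pkhd1 and 2321 to 2447 in FHH, so the arrays of PCK and SD overlapped. The median of the 16 pool means was 7.13 in PCK, 7.21 in SD, 7.07 in FHH.Pkhd1 and 6.96 in FHH, and 9 of the 16 had a higher and 7 a lower mean in PCK than in SD. The part of these markers in the differences of the members was not tested.

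Lymphocyte markers were mostly below the detection level. Of 11 B cell probe sets 2 were tested and none called, and Cd79b and Ms4a1 were below the level in every pool. Of 16 T cell probe sets 3 were tested and none called, and the probe sets of Cd3d, Cd3e, Cd3g, Cd4, Cd8a and Cd8b were below the level in every pool. Of 10 endothelial probe sets none was called in the 4 comparisons, with 3 to 7 at an unadjusted limma p under 0.05. The largest difference was that of Kdr in PCK minus FHH.Pkhd1, at -0.57 ± 0.04, just under the fold limit. Over all probe sets tested, 1.90% to 6.91% were called in these comparisons, so few calls would be found in lists this short. Of 13 proximal tubule probe sets, the kidney's most abundant cell type, 1 was called lower in FHH.Pkhd1 than in FHH and 1 higher in PCK than in FHH.Pkhd1.

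The other single-symbol RT1 probe sets, mostly class I, numbered 18, of which 13 were tested. Between PCK and SD 1 was called higher and 4 lower, in SD minus FHH 3 higher and 3 lower. The lower calls in both comparisons include RT1-CE5 1371209_at, which was below the detection level in PCK and in SD. Its call between PCK and SD does not compare 2 measured signals. It entered the test through the FHH-background pools alone, so its call in SD minus FHH was partly built in. The shares called over all probe sets tested were 3.49% and 3.72%. In FHH.Pkhd1 minus FHH, where no member was called, RT1-CE5 1388255_x_at was higher (0.79 ± 0.12) and RT1-S3 lower on 2 probe sets (-0.76 ± 0.06 and -0.70 ± 0.05). RT1-CE5 1371209_at averaged 2.86 in PCK, 4.58 in SD, 7.75 in FHH.Pkhd1 and 7.21 in FHH, so the signal of that probe set reached the level only on the FHH background. Another probe set of the gene, 1370972_x_at, averaged 7.44 in PCK, 7.27 in SD, 7.50 in FHH.Pkhd1 and 7.49 in FHH. These genes have close relatives, and how their probe sets divide reads of them was not tested.

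Genes between RT1-T24-3 and RT1-DMa in GRCr8 that are no RT1 genes gave 71 tested probe sets of 63 genes. Of these, 1 was called in PCK minus SD (Prrt1, 0.75 ± 0.09) and 2 in FHH.Pkhd1 minus FHH (Prrc2a, 0.92 ± 0.08, and Pbx2, 0.87 ± 0.05). In PCK minus FHH.Pkhd1 6 were called, 5 of them lower, among them Tcf19 (-0.85 ± 0.03), and in SD minus FHH 2 were called, both of Neu1 (-0.67 ± 0.06 and -0.99 ± 0.05). As shares of the 71 these were 1.41%, 2.82%, 8.45% and 2.82%, beside 3.49%, 1.90%, 6.91% and 3.72% of all probe sets. Elsewhere on chromosome 20 the calls were 11, 5, 23 and 11 of 321 tested probe sets. The largest called difference among these genes was that of Prrc2a in PCK minus FHH.Pkhd1, at -1.05 ± 0.08.

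The genes with the most similar pattern over the 12 arrays, which form 4 pools, were sought among 14662 other single-symbol probe sets. Mx2, an interferon-induced GTPase, was the closest to the probe sets high in SD alone, with Pearson r of 0.994 for RT1-Bb 1371065_at, 0.993 for RT1-Ba 1377334_at and 0.995 for RT1-T24-3. Hrg was closest to RT1-Bb 1371033_at (0.996), Thrsp to RT1-Ba 1370822_at (0.995), Pebp1 to RT1-Da (0.996), Fuom to RT1-Db1 1370383_s_at (0.994) and Clca4 to RT1-Db1 1370382_at (0.987). With 4 pools such values mean no more than that these genes order the pools alike.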

How the data were processed

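Kidney RNA of 4 strains, 1 pool of 6 animals each, was measured on 12 Affymetrix Rat 230 arrays, 3 per pool. The deposited values are log2 signals that the authors made with Partek 6.2 and RMA, as the submitters' processing notes name them. The sources used here do not say whether the arrays were normalised jointly. Values were used without further normalisation.

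Groups were taken from the strain labels. The table held 31099 probe sets. The 57 controls were left out, and of the others 436 carried several symbols and 9780 none in GEO's platform annotation. Names, gene order and promoters came from RefSeq's GRCr8 tables, and no protein table was used. Every detected probe set (highest pool mean at the 40th percentile or above) was fitted in limma 3.58.1 (R 4.3.3) with 1 mean per strain, over all 12 arrays (8 residual and 3.77 prior degrees of freedom). Per-array differences between probe sets of 1 gene were fitted alike. Calls needed a Benjamini-Hochberg adjusted p under 0.05 and 1.5-fold.

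The procedure was tested on simulated data. Alternatives covered the fold limit, the filter, normalisation, the variance model, which arrays were fitted, the replicate number as a block and leaving out each array. The named list genes were, per list and comparison, those called (up to 4), or the 2 largest where none was called, and the most similar genes were the 3 with the highest r for members with a span of at least 1. The members and lists were chosen with earlier results of these data known. Figures were drawn with matplotlib 3.10.9.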

Additional observations from a re-analysis of the deposited data

Results flagged for a closer look

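The PCK minus SD difference departed from the FHH.Pkhd1 minus FHH difference for 9 of the 16 probe sets, each by the limma interaction term (adjusted p under 0.05 and at least 1.5-fold). Over all probe sets tested the share was 6.44%. The interaction was positive for RT1-Bb 1371033_at (5.23 ± 0.11), RT1-CE16 1370463_x_at (1.41 ± 0.15) and RT1-Db1 1370382_at (1.12 ± 0.12). It was negative for RT1-Bb 1371065_at (-5.06 ± 0.10), RT1-Ba 1377334_at (-4.85 ± 0.09) and RT1-T24-3 1388694_at (-2.02 ± 0.13), and also for RT1-Da 1370883_at (-0.88 ± 0.06), Cd74 1367679_at (-0.84 ± 0.05) and RT1-DMa 1370904_at (-0.74 ± 0.08). RT1-Bb 1371065_at, RT1-Ba 1377334_at and RT1-T24-3 had entered the test through SD alone, so their calls add nothing beside that share. Strain background and the mutation cannot be told apart in PCK minus SD.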

How the results depend on the processing

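Under 21 alternatives, 1653 single differences were recomputed, and 1615 kept their call, 16 lost it, 22 gained it and 0 called differences changed sign. With a 2-fold limit 4 members were called in PCK minus FHH.Pkhd1, 5 in PCK minus SD and 5 in SD minus FHH. With no fold limit 6 members and 4 pairs were called in FHH.Pkhd1 minus FHH, and with only the arrays of the pools compared 3 pairs were called in PCK minus FHH.Pkhd1. Leaving out each array in turn gave 8 to 9 members in PCK minus SD, 0 to 1 in FHH.Pkhd1 minus FHH, 8 to 9 in PCK minus FHH.Pkhd1, 9 in SD minus FHH, and 0 to 1 pairs in FHH.Pkhd1 minus FHH (1 without FHH replicate 1 or FHH.Pkhd1 replicate 2) and 5 to 7 in SD minus FHH. The cause was not tested. RT1-CE16 1370463_x_at, FHH.Pkhd1 minus FHH was -0.66 without FHH.Pkhd1 replicate 3. RT1-DMa 1370904_at, PCK minus SD was -0.60 without PCK replicate 2 and -0.59 without SD replicate 3. RT1-Db1 1370382_at, PCK minus FHH.Pkhd1 was -0.58 without PCK replicate 1. Over the whole array, PCK minus SD had 6299 calls with no fold limit and 221 with a 2-fold limit, against 676. Likewise SD minus FHH had 6756 and 230, against 721, and FHH.Pkhd1 minus FHH had 4061 and 73, against 368. For PCK minus FHH.Pkhd1 the counts were 10017 and 436, against 1337, and for the interaction 5821 and 370, against 1246. With the replicate number as a block 8, 0, 9, 9 and 9 members and 5, 0, 5 and 6 pairs were called, as without it. Deviations of same-numbered arrays correlated at -0.345 to 0.345 (6 of 18 over 0.1). Differently numbered arrays were not compared, so these values cannot show whether the numbers pair the arrays. Signals near the detection level, such as those of Ciita, limit what can be read.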

Other observations

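RT1-A3 or RT1-A2 1370428_x_at, a class I probe set with several symbols and therefore no member, averaged 3.84 in PCK, 10.78 in SD, 3.55 in FHH.Pkhd1 and 3.69 in FHH. Its span of 7.22 log2 units ranked 2 among all probe sets tested, above every member, and SD was again the pool set apart. It reached the detection level in SD alone, so it had to differ to be tested and some span was built in. It was 1 of 6 RT1 probe sets with several symbols. Among the others, 1371267_at (RT1-A, RT1-CE16 or RT1-A1) averaged 6.2 in PCK, 6.16 in SD, 6.08 in FHH.Pkhd1 and 6.09 in FHH. There SD was not set apart. The probe set 1381029_at (RT1-T24-3 or RT1-T24-4) averaged 3.24, 3.39, 3.13 and 3.23 in that order. These means lie below the detection level, so a strain difference cannot be read from them. RT1-N2 1387839_at, a class I probe set below the detection level, averaged 3.90 in PCK, 5.45 in SD, 3.74 in FHH.Pkhd1 and 3.79 in FHH. RT1-T24-4 1389734_x_at, named for a relative of RT1-T24-3, averaged 9.05 in PCK, 9.90 in SD, 8.97 in FHH.Pkhd1 and 9.0 in FHH, and was lower in PCK than in SD (-0.85 ± 0.06, limma adjusted p = 8.17e-07). RT1-CE12 1388236_x_at was higher in SD, at 10.51, than in FHH, at 9.44 (1.07 ± 0.09, limma adjusted p = 1.86e-06). These probe sets were picked after their values were seen.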
